A study of Mus musculus with 21 samples.

Results

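The genes described here are 10 members of the myostatin and activin branch of TGF-beta signalling: the ligands Mstn, Gdf11, Inhba and Inhbb, the antagonists Fst and Fstl3, and the receptors Acvr2a, Acvr2b, Acvr1b and Acvr1c. They were chosen by symbol, with earlier results of these data known, and each is represented by the gene model with the highest summed count over both tables. All 10 had a model among the 28541 of the tables, and they are followed here through brown fat and a thigh muscle of mice that do or do not lack Irf4 in brown fat.

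Myostatin and its close relative GDF11, and the activins built from the beta subunits that Inhba and Inhbb encode, are secreted dimers. They bind the type II receptors encoded by Acvr2a and Acvr2b, which recruit the type I receptors encoded by Acvr1b and Acvr1c, and the complex phosphorylates SMAD proteins that enter the nucleus. Follistatin, from Fst, and follistatin-like 3, from Fstl3, hold these ligands in inactive complexes. Myostatin comes mainly from skeletal muscle fibres and restrains their growth, whereas Acvr1c is known as a receptor of fat cells.

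RNA was sequenced from whole brown fat (BAT), which oxidises lipid to warm the body, and from the white vastus (WV), a thigh muscle made of fast fibres. Floxed mice carry loxP sites around the target gene. BATI4KO mice are their littermates that, from knowledge of the study, have lost the transcription factor Irf4 in cells that express a Cre recombinase driven by the Ucp1 promoter, so that other cells of the fat and the muscle keep the gene. The study asked whether brown fat without Irf4 acts on muscle through myostatin. The labels give no age, diet or temperature. There were 11 libraries of BAT, 5 floxed and 6 BATI4KO, and 10 of WV, 5 per genotype. The titles of 6 BAT libraries end in a short number (1, 2 or 3 in each genotype) and all others in a longer tag, by which they are named here: FX_5497 is a floxed and KO_5492 a BATI4KO library. Neither the meaning of these numbers nor the animal behind a library is stated, and p-values therefore reflect library-to-library spread that may in part be technical.

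Depth ranged from 20219479 to 41773148 counts among BAT libraries and was 30479508 to 40328627 among WV ones. Levels are CPM, counts scaled to a common library size, with sizes adjusted by TMM over all 21 libraries. Irf4 ran from 17.9 to 43.5 CPM in the floxed and from 4.92 to 5.95 CPM in the BATI4KO libraries of BAT, so the labels of all 11 hold for the targeted gene. Ucp1, the heat-producing protein of brown fat, was at 1016 to 5692 CPM in BAT and at most 0.412 CPM in WV. The summed level of 20 contractile muscle genes was 313335 to 699132 CPM in WV and 261 to 19016 CPM in BAT, where BATI4KO library 3 was the highest and the next was at 3123 CPM.

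Levels per kilobase of gene model, which can be compared between genes, put the members in a different order in the 2 tissues. In BAT, Acvr1c led with a median of 23.2 CPM per kilobase (range 19.5 to 32.2 over 11 libraries), followed by Acvr2a at 6.44 (5.67 to 7.35), and these ranges did not overlap with each other or with the next. Acvr1b at 2.07, Fst at 1.61 and Acvr2b at 1.30 CPM per kilobase formed a middle group whose ranges overlapped. Gdf11 at 0.265, Inhbb at 0.180, Mstn at 0.0941 (up to 1.16 in BATI4KO library 3), Fstl3 at 0.0814 and Inhba at 0.0694 were the lowest, with ranges that overlapped. In WV, Mstn led with 46.3 CPM per kilobase (21.4 to 59.6 over 10 libraries), beside Acvr1b at 31.2 (16.0 to 47.4) and Acvr2a at 16.5 (12.97 to 27.8), and neighbours in this order overlapped. Acvr2b was at 8.21, Gdf11 at 3.67 and Fst at 0.948 CPM per kilobase. Inhbb at 0.206, Fstl3 at 0.172, Inhba at 0.170 and Acvr1c at 0.0900 came last with overlapping ranges. Acvr1c was thus the highest member in brown fat and the lowest in muscle, and Mstn was the highest in muscle and among the lowest in brown fat.

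**Figure D1:**
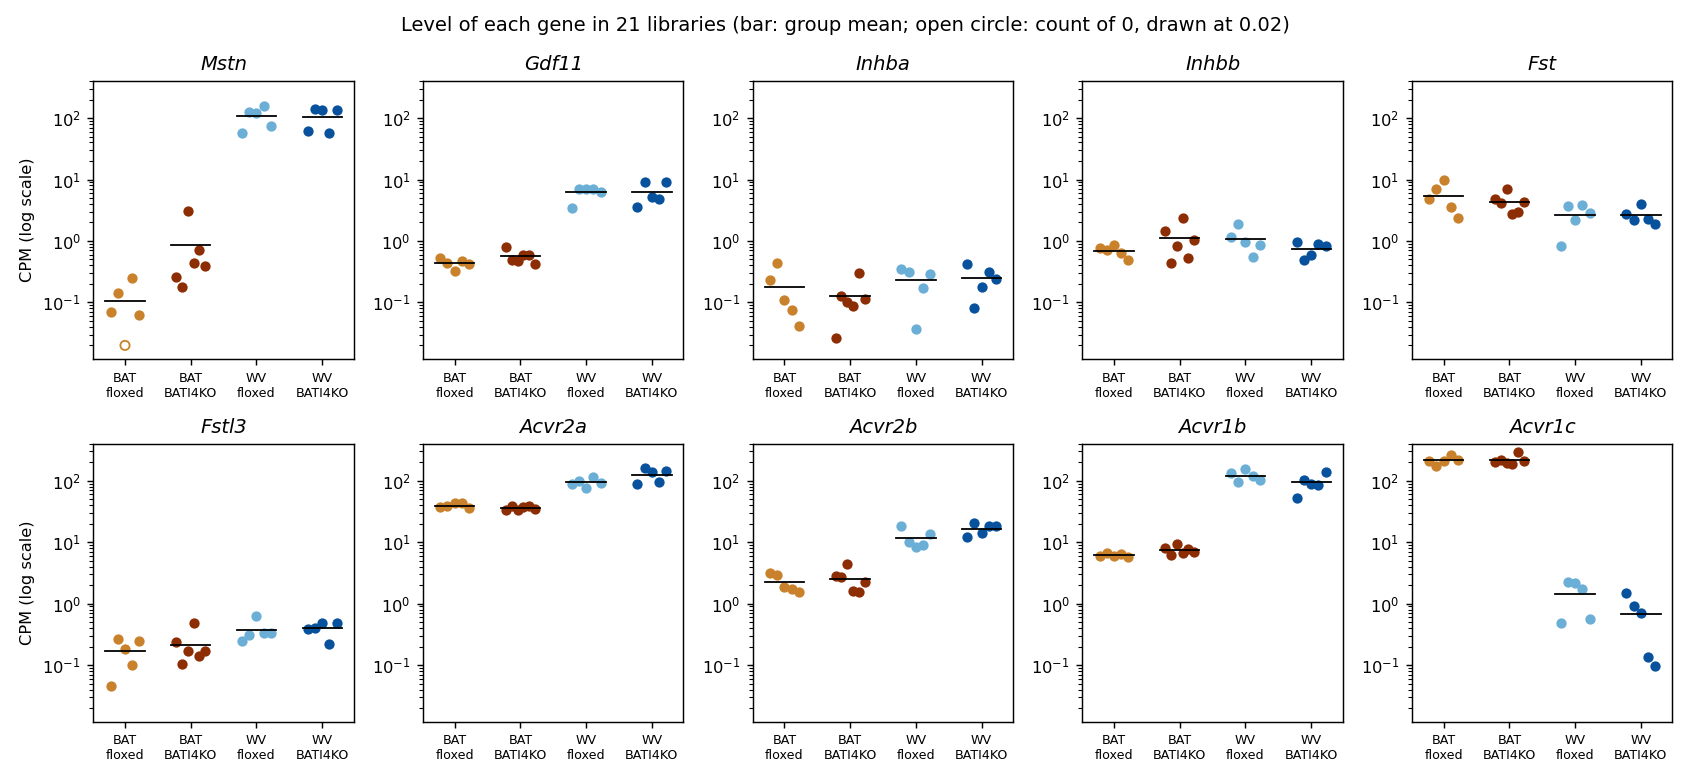
Level of each of the 10 genes in CPM (log axis) in every library, by tissue and genotype; points are libraries, bars group means, and an open circle a count of 0. Mstn, Gdf11, Acvr2a, Acvr2b and Acvr1b sit higher in all WV libraries than in any BAT library, and Acvr1c sits higher in all BAT libraries.

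Between the tissues, 6 of the 9 members tested differed in floxed mice and the same 6 differed in BATI4KO mice. Acvr1c was higher in BAT, and Mstn, Gdf11, Acvr2a, Acvr2b and Acvr1b were lower. Inhbb, Fst and Fstl3 did not pass, and Inhba was left out by the filter on low counts. The tissues differ in most of their transcripts: 65.8% of 16632 gene models passed the same edgeR test in floxed mice, 34.1% higher and 31.7% lower in BAT, and 70.5% in BATI4KO mice, 37.4% higher and 33.1% lower. A count of 6 of 9 is therefore near the share of all genes. The members' median log2 difference, BAT minus WV, was -1.23 in floxed and -1.78 in BATI4KO mice, against 0.11 and 0.14 over all models. The libraries of the tissues did not overlap for the same 6 members in each genotype, where 52% of models in floxed and 56.3% in BATI4KO mice had no overlap. With library totals in place of TMM the median of all models moved to 0.79 and 1.09. Of the members, 7 then passed in floxed mice (2 higher and 5 lower) and 8 in BATI4KO mice (3 higher and 5 lower), and the 6 named above kept their directions.

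**Figure D2:**
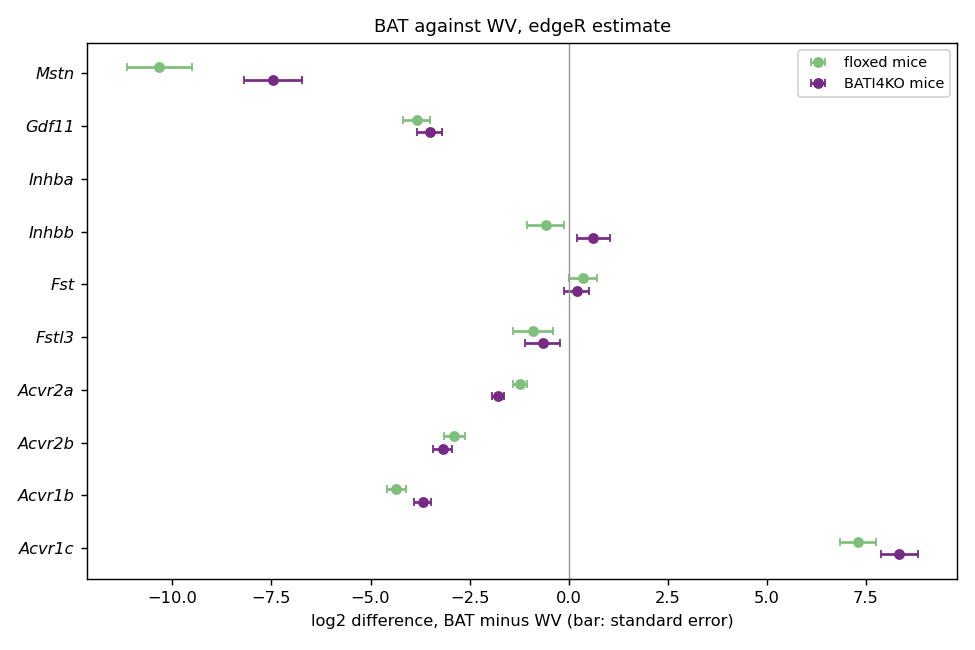
Log2 difference of each tested gene between BAT and WV (BAT minus WV) in floxed and in BATI4KO mice, from edgeR, with bars of 1 standard error. Acvr1c lies far to the right, Mstn farthest to the left, and Inhbb, Fst and Fstl3 near 0.

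Mstn, the gene of myostatin, had the largest difference between tissues of any member in floxed mice, and Acvr1c the largest in BATI4KO mice. In the floxed libraries of WV it was at 57.4 CPM in library FX_5413, 127 in FX_5415, 121 in FX_5497, 160 in FX_5503 and 75.6 in FX_5514. In those of BAT it was at 0.0696 CPM in library 1, 0.144 in library 2, 0.252 in FX_5497 and 0.0622 in FX_5503, and library 3 had no read, which allows up to 0.108 CPM (3 counts). No BAT library of either genotype came near a WV library. The log2 difference, BAT minus WV, was -10.33 in floxed mice (SE 0.82; edgeR adjusted p = 3.95e-10) and -7.45 in BATI4KO mice (SE 0.73; edgeR adjusted p = 9.72e-09). The 250 bases upstream of the annotated starts of Mstn and Acvr1c are shown because these members mark opposite tissues. They are RefSeq sequences of GRCm38.p6, not of the build of the count tables, at chr1:53061390-53061639 on the plus strand and chr2:58357759-58358008 on the minus strand. Capitals mark E-boxes, CANNTG, the general motif of basic helix-loop-helix factors that include the myogenic ones.
Mstn: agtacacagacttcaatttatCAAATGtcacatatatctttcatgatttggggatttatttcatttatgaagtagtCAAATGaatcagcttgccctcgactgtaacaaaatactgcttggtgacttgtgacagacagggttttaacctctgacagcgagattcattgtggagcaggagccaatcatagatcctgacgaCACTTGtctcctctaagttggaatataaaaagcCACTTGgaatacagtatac
Acvr1c: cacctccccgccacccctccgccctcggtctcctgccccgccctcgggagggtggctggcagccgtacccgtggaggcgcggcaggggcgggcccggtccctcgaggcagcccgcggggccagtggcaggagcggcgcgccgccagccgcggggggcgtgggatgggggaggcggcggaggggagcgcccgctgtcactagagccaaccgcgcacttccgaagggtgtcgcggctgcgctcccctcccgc
Both strands were searched. The Mstn window held 4 E-boxes, CAAATG starting 229 and 174 bases and CACTTG starting 52 and 19 bases before the start. It also held CAGAC, a SMAD-binding element, 244 and 120 bases before the start, TATAAA at 29 and CCAAT at 72 bases, and no interferon regulatory factor element (GAAA repeated after 2 bases). The Acvr1c window held none of these 5 motifs. Of 32851 RefSeq mouse windows of the same length, 66.2% held an E-box, 3.84% at least 4, 42.2% CAGAC, 12.4% TATAAA, 33.8% CCAAT and 2.98% the interferon regulatory factor element. The letters are a description and show no binding. Windows were found for 9 of the 10 members, all but Fst, and Acvr1c had another window whose E-box count was 1. Of the other members lower in BAT, Gdf11 and Acvr1b had 1 E-box each, and Acvr2a and Acvr2b had 0. Fstl3, which did not pass between tissues, had 3, and Inhba and Inhbb had 0.

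Gdf11, a ligand nearly identical to myostatin in its mature part, was lower in BAT. It was at 0.323 to 0.533 CPM in floxed BAT (median 0.431, n = 5) and at 3.49 CPM in WV library FX_5413, 7.11 in FX_5415, 7.03 in FX_5497, 7.10 in FX_5503 and 6.28 in FX_5514. The lowest WV library still lay above every BAT library. The log2 difference was -3.83 in floxed mice (SE 0.34; edgeR adjusted p = 2.33e-09) and -3.51 in BATI4KO mice (SE 0.31; edgeR adjusted p = 1.60e-09).

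The activin subunits were low in both tissues and did not separate them. Inhba, which encodes the beta A subunit, had 1 to 18 counts per library in BAT and 1 to 13 in WV, and was left out by the filter on low counts. Inhbb, which encodes the beta B subunit, was at 0.765, 0.719, 0.863, 0.631 and 0.498 CPM in floxed BAT libraries 1, 2, 3, FX_5497 and FX_5503. In floxed WV it was at 1.18, 1.86, 0.962, 0.549 and 0.856 CPM in libraries FX_5413, FX_5415, FX_5497, FX_5503 and FX_5514, which overlap with BAT. Its log2 difference between tissues was -0.58 in floxed mice (SE 0.47; edgeR adjusted p = 0.284) and 0.62 in BATI4KO mice (SE 0.41; edgeR adjusted p = 0.183).

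The antagonists did not pass between tissues either. Fst, which encodes follistatin, was at 4.89, 6.88, 9.70, 3.56 and 2.36 CPM in floxed BAT libraries 1, 2, 3, FX_5497 and FX_5503, and at 0.835, 3.64, 2.22, 3.85 and 2.81 CPM in floxed WV libraries FX_5413, FX_5415, FX_5497, FX_5503 and FX_5514. The ranges overlapped, and within BAT the level moved with the style of the title: 4.07 to 9.70 CPM in the 6 short-number and 2.36 to 4.24 CPM in the 5 long-tag libraries. The fitted difference takes that style into account and refers to the long tags that all WV titles carry. It was 0.35 in floxed (SE 0.35; edgeR adjusted p = 0.392) and 0.21 in BATI4KO mice (SE 0.32; edgeR adjusted p = 0.572). Without the style term Fst passed in floxed mice at 1.02 (edgeR adjusted p = 0.0166), and with library totals it passed in both genotypes, with edgeR adjusted p = 0.0366 in floxed mice and 0.00929 in BATI4KO mice (log2 1.133). Fstl3, a secreted relative of follistatin that binds myostatin and activins, had 2 to 22 counts per library in BAT and 5 to 17 in WV. Its log2 difference was -0.89 in floxed mice (SE 0.50; edgeR adjusted p = 0.126) and -0.65 in BATI4KO mice (SE 0.44; edgeR adjusted p = 0.192). Without the style term Fstl3 passed in floxed mice at -1.136 (edgeR adjusted p = 0.0273).

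Both type II receptors were lower in BAT, with the larger estimate for Acvr2b. Acvr2a was at 37.4, 38.3, 43.0, 43.2 and 35.9 CPM in floxed BAT libraries 1, 2, 3, FX_5497 and FX_5503, and at 88.7, 99.2, 76.2, 116 and 92.5 CPM in floxed WV libraries FX_5413, FX_5415, FX_5497, FX_5503 and FX_5514. The tissues did not overlap, and the mean of the floxed BAT libraries was 39.5 ± 3.33 CPM (SD, n = 5). The log2 difference was -1.23 in floxed mice (SE 0.17; edgeR adjusted p = 2.01e-06) and -1.78 in BATI4KO mice (SE 0.16; edgeR adjusted p = 2.40e-09). Acvr2b was at 3.20, 2.97, 1.87, 1.74 and 1.58 CPM in floxed BAT, in the same order of libraries, and at 18.1, 10.03, 8.25, 8.96 and 13.6 CPM in floxed WV. Its tissues did not overlap, and its log2 differences were -2.89 in floxed (SE 0.27; edgeR adjusted p = 4.08e-09) and -3.18 in BATI4KO mice (SE 0.25; edgeR adjusted p = 2.49e-10). As for Fst, the values of Acvr2b in BAT moved with title style, at 1.87 to 4.41 CPM in short-number and 1.55 to 2.22 CPM in long-tag libraries.

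The type I receptors went in opposite directions. Acvr1b, the type I receptor used by activins and myostatin in many tissues, was at 5.91, 6.78, 5.89, 6.51 and 5.74 CPM in floxed BAT libraries 1, 2, 3, FX_5497 and FX_5503. In floxed WV libraries FX_5413, FX_5415, FX_5497, FX_5503 and FX_5514 it was at 132, 94.7, 155, 121 and 103 CPM, all above the BAT libraries. The log2 difference was -4.35 in floxed mice (SE 0.24; edgeR adjusted p = 1.32e-12) and -3.69 in BATI4KO mice (SE 0.22; edgeR adjusted p = 3.14e-12). Acvr1c was at 207, 176, 211, 264 and 213 CPM in the same floxed BAT libraries and at 0.491, 2.23, 2.15, 1.73 and 0.571 CPM in those of WV. It was 158-fold higher in BAT of floxed mice (log2 7.30, SE 0.45; edgeR adjusted p = 7.24e-12) and 325-fold higher in BATI4KO mice (log2 8.34, SE 0.47; edgeR adjusted p = 1.49e-12).

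The low Acvr1c of muscle was set beside RNA of fat cells. Adipoq, the adipocyte hormone adiponectin, was at 13.7 CPM in WV floxed library FX_5415, which had the highest Acvr1c at 2.23 CPM, and at 0.224 CPM in BATI4KO library KO_5495, where Acvr1c was at 0.134 CPM. The summed level of 5 adipocyte markers was 64.6 to 132 CPM in floxed WV, 39.7 to 103 CPM in BATI4KO WV and 2865 to 6533 CPM in BAT. In each WV library, the share that its Adipoq makes of the BAT mean, multiplied by the BAT mean of Acvr1c, gives the Acvr1c that such an amount of brown fat would bring. This came to 1.85 CPM in floxed library FX_5503, where 1.73 CPM was measured, and to 1.53 CPM in BATI4KO library KO_5492, where 1.504 CPM was measured. In floxed library FX_5415 it came to 4.95 CPM against the 2.23 measured, and in BATI4KO library KO_5496 to 0.264 CPM against 0.0971. In the other 6 WV libraries the measured level was above it. This calculation was added after the values were seen, and the part of fat in the Acvr1c of WV was not tested.

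Between genotypes in BAT, no member passed. Of the 8 tested, 0 were called by edgeR, where 0.0436% of all 16051 models were, and 2 had an unadjusted p under 0.05 (Mstn and Acvr1b), where 14.7% of all models did. DESeq2 called 0 members and 374 models, but gave Mstn (log2 2.89) no adjusted p, so that Mstn could not be called there. The libraries of the genotypes overlapped for all 10 members, where 0.928% of models had no overlap. The median log2 difference of the 8, BATI4KO minus floxed, was 0.24, against -0.01 over all models. Inhba and Fstl3 fell under the filter, and Mstn passed it through its counts in BATI4KO libraries, since its floxed libraries had 0 to 10.

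**Figure D3:**
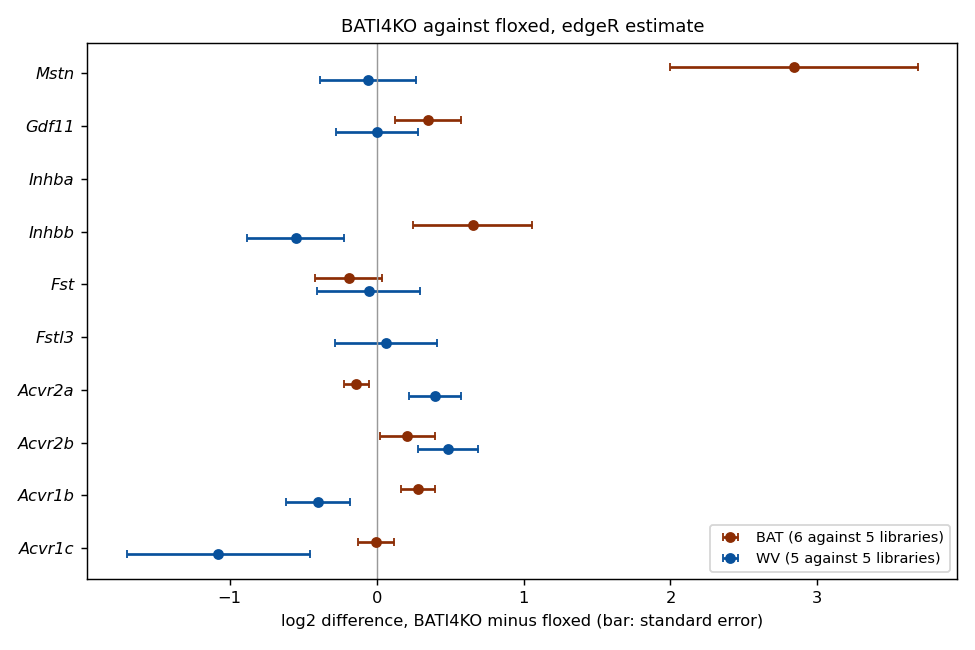
Log2 difference of each tested gene between BATI4KO and floxed mice (BATI4KO minus floxed) in BAT and in WV, from edgeR, with bars of 1 standard error. Mstn in BAT lies at 2.84 with a wide error, and all other members of BAT lie between -0.19 and 0.65.

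Mstn had the largest difference of the members in BAT, on few reads. The BATI4KO libraries were at 0.262 CPM in library 1, 0.179 in library 2, 3.11 in library 3, 0.440 in KO_5414, 0.716 in KO_5492 and 0.398 in KO_5494, on 10, 7, 93, 20, 31 and 14 counts. The floxed libraries, at 0 to 0.252 CPM, had 3, 6, 0, 10 and 3 counts in libraries 1, 2, 3, FX_5497 and FX_5503. Library 2 was the only BATI4KO library within the floxed range of CPM, and library 3 stood apart above all others. BATI4KO library 1 lay barely above that range, with 10 counts as in floxed FX_5497. The log2 difference was 2.84 (SE 0.84, 95% interval 1.19 to 4.49; edgeR adjusted p = 0.193). Without BATI4KO library 3 and with no filter it was 1.62 (edgeR adjusted p = 0.218), and without BATI4KO library 2 and with no filter it was 3.07 and passed (edgeR adjusted p = 0.0468). With the filter kept, the planned fit without BATI4KO library 2 gave 3.09 and did not pass (edgeR adjusted p = 0.0877). Fits with no filter and fewer libraries were added after the data were seen. Within the long-tag libraries the log2 difference was 1.76 (edgeR adjusted p = 0.255), and within the short-number libraries, with no filter, 3.82 (edgeR adjusted p = 0.737). The mean of the BATI4KO libraries was 0.851 ± 1.12 CPM in BAT (SD, n = 6), beside 106 ± 42.7 CPM in WV (SD, n = 5).

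Transcripts of muscle fibres moved with Mstn in BAT. Ckm, the muscle creatine kinase, was at 8.05, 16.2, 27.5, 33.3 and 5.79 CPM in floxed libraries 1, 2, 3, FX_5497 and FX_5503, and at 37.6, 11.96, 365, 119, 105 and 71.0 CPM in BATI4KO libraries 1, 2, 3, KO_5414, KO_5492 and KO_5494. Myh4, the myosin of the fastest fibres, was at 31.0, 45.4, 78.4, 151 and 32.9 CPM and at 167, 42.04, 1321, 373, 450 and 333 CPM in the same order. For both genes BATI4KO library 2 lay within the floxed range and library 3 was the highest, as for Mstn. The log2 differences were 2.69 for Ckm (SE 0.76; edgeR adjusted p = 0.188) and 2.72 for Myh4 (SE 0.74; edgeR adjusted p = 0.178), close to that of Mstn. All 20 contractile genes of the list had a positive difference and 0 passed, with a median of 2.60, and their summed level was 261 to 1319 CPM in floxed and 705 to 19016 CPM in BATI4KO ones. With the mean log2 level of these 20 genes as a covariate, the difference of Mstn was 0.40 (edgeR adjusted p = 0.942). The markers of muscle satellite cells, Pax7, Myf5 and Chodl, were at or near 0 in BAT, at most 0.468 CPM in sum against 12.2 to 25.4 CPM in WV. Ckm in BAT was itself at most 1.62% of its WV mean, in BATI4KO library 3. These low sums therefore cannot show whether satellite-cell RNA came with that of the fibres. In whole tissue, fewer cells of a type and less RNA per cell cannot be told apart, and whether muscle fibres or brown adipocytes gave the Mstn reads of BAT was not tested.

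**Figure D4:**
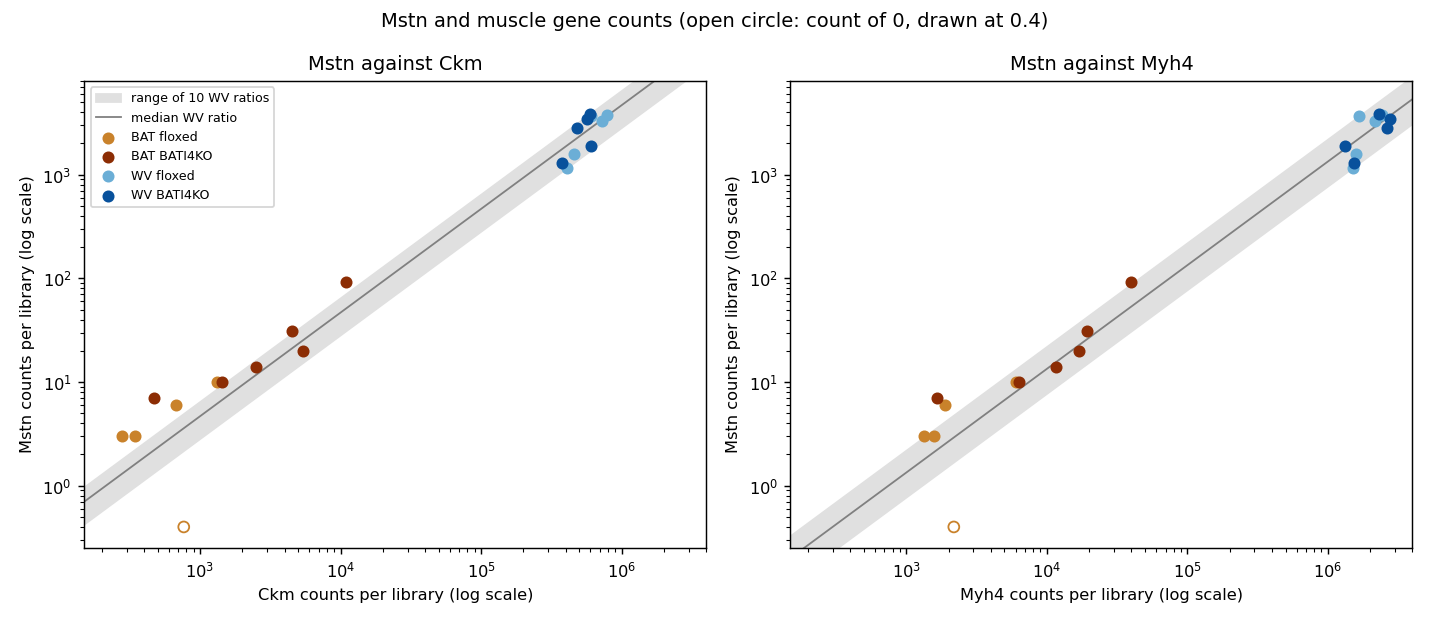
Mstn counts of each library against its Ckm (left) and Myh4 counts (right), on log axes; the grey band is the range and the line the median of the ratio over the 10 WV libraries, and an open circle is a count of 0. The BAT libraries had 0 to 93 Mstn counts; for Ckm, floxed library 3, with 0, lies below the band and BATI4KO library 2 lies farthest above it.

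Set against muscle transcripts of the same library, Mstn did not pass between genotypes or tissues. Per 1000 counts of Ckm, floxed BAT libraries 1, 2, 3, FX_5497 and FX_5503 had 8.65, 8.86, 0, 7.59 and 10.8 Mstn counts. BATI4KO libraries 1, 2, 3, KO_5414, KO_5492 and KO_5494 had 6.97, 15.0, 8.52, 3.68, 6.84 and 5.61. The genotypes overlapped, with means of 7.17 ± 4.17 (SD, n = 5) and 7.77 ± 3.89 (SD, n = 6). The ratio in WV was 4.35 ± 1.25 in floxed and 4.99 ± 1.59 in BATI4KO libraries (SD, n = 5 each). Per 1000 counts of Myh4 the means were 1.79 ± 1.15 in floxed and 2.03 ± 1.18 in BATI4KO BAT, and 1.41 ± 0.554 and 1.26 ± 0.327 in WV. The log2 difference of the Ckm ratio between genotypes in BAT was 0.35 (exact permutation test within title style, two-sided, p = 0.885, adjusted over 9 ratio tests p = 0.92, smallest possible p = 0.005). It was 0.31 for Myh4 (exact permutation p = 0.92, adjusted p = 0.92) and 0.58 for the sum of the contractile list (exact permutation p = 0.645, adjusted p = 0.92). Without floxed library 3, which had no Mstn read, these 3 differences were -0.44, -0.37 and -0.18, and within the long-tag libraries -0.90, -0.55 and -0.28. Between BAT and WV the 6 exact permutation tests had adjusted p-values of 0.555 to 0.92, with log2 differences (BAT minus WV) from -0.78 for the contractile sum in floxed mice to 0.62 for Ckm and for Myh4 in BATI4KO mice. The floxed BAT libraries with an Mstn read had 7.59 to 10.8 per 1000 Ckm counts, above the floxed WV range of 2.86 to 6.08. For Myh4 and the contractile sum their ranges overlapped. Over both genotypes, the BAT median of 7.59 per 1000 Ckm counts lay above the highest WV library, at 6.51. The BAT medians for Myh4 and the sum, 1.67 and 0.191, lay within the WV ranges of 0.780 to 2.21 and 0.102 to 0.405. With a library left out, the floxed tissue differences ran from 0.17 to 1.23 for Ckm, -0.10 to 0.87 for Myh4 and -1.06 to -0.02 for the sum. A p above the threshold does not show equal ratios, since 0 to 93 counts of Mstn leave wide intervals: at BATI4KO library 2 the exact 95% interval of the Ckm ratio was 6.03 to 30.9.

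The Mstn count of each BAT library was also set beside the count that its muscle transcripts would bring at the ratios found in WV. With Myh4 as the measure, the exact Poisson 95% interval of the observed count overlapped the expected range in 11 of 11 libraries, and with the contractile sum in 11 of 11. With Ckm it did so in 10 of 11. The exception was BATI4KO library 3, with 93 observed (interval 75.1 to 114) against an expected 31.2 to 71.1. By the observed count alone, most BAT libraries lay above the range expected from Ckm. Those that did not were floxed library 3, below it, and BATI4KO libraries KO_5414 and KO_5494, within it. These intervals cover counting error only, since reads without molecular identifiers are not independent molecules. Where counts were few, an overlap could hardly fail, since both the interval and the span of WV ratios are wide. In floxed library FX_5503, 3 observed counts had an interval of 0.619 to 8.77, against 1.24 to 3.50 expected from Myh4. At such counts an overlap does not show that the observed and expected counts are equal.

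**Figure D5:**
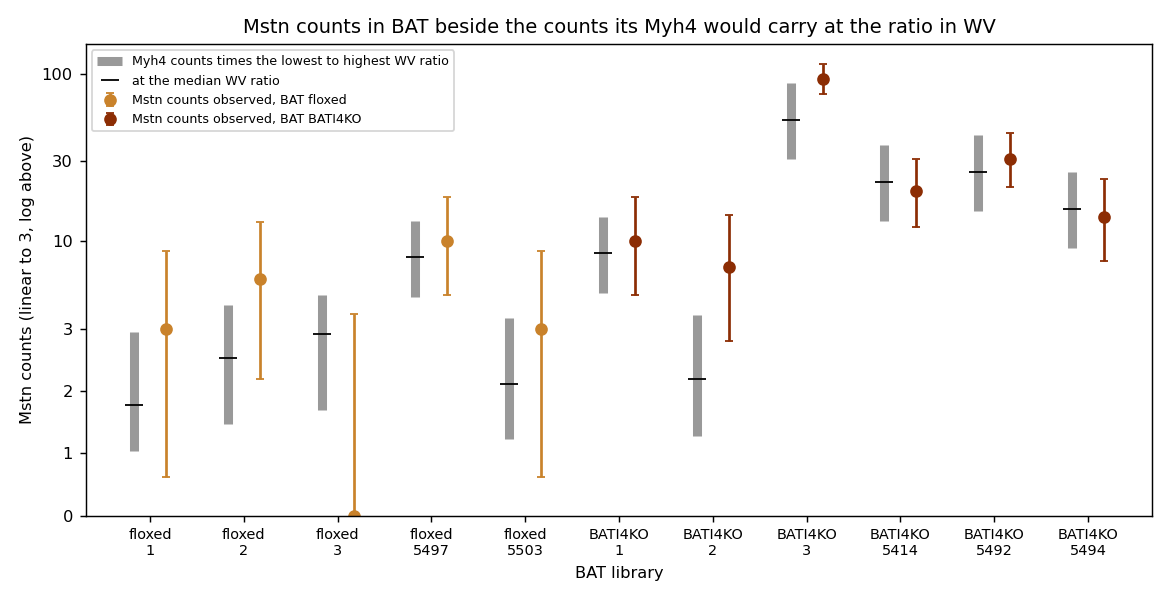
Observed Mstn counts of the 11 BAT libraries with exact Poisson 95% intervals (points), beside the counts expected from their Myh4 counts at the lowest to highest Mstn to Myh4 ratio of the 10 WV libraries (grey bars, dash at the median); the axis is linear to 3 and logarithmic above. Observed interval and grey bar overlap in all 11 libraries, from 0 counts in floxed library 3 to 93 in BATI4KO library 3.

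Across the 11 BAT libraries the log2 level of Mstn followed those of the muscle genes. Pearson's r was 0.79 with Ckm, 0.82 with Myh4 and 0.80 with the contractile sum (permutation test, adjusted over 3 relations p = 0.00494, 0.00348 and 0.00494). Spearman's rho was 0.89, 0.89 and 0.91 (permutation adjusted p = 0.00044 for each). Without the 2 libraries farthest from the median of the muscle gene, r was 0.61, 0.69 and 0.61 and no longer passed (exact permutation adjusted p = 0.0831 for each), so Pearson's r rests in part on those libraries, while rho was 0.87, 0.88 and 0.90 (exact permutation adjusted p = 0.00451 for each). Without BATI4KO library 3 alone, r was 0.65 with Ckm and 0.63 with the sum (permutation adjusted p = 0.0568 for both) and 0.71 with Myh4 (permutation adjusted p = 0.0465). Within the 6 BATI4KO libraries r was 0.91, 0.90 and 0.98 (exact permutation adjusted p = 0.00833, 0.00417 and 0.00417), and within the 6 short-number libraries 0.74, 0.77 and 0.78 (exact permutation adjusted p = 0.175 for each). No correlation is given for the 5 floxed or the 5 long-tag libraries alone, since at least 6 libraries were required for one.

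The same arithmetic was applied to the other members. With the share of muscle taken from Ckm, the level expected from WV equalled a median of 59.0% of the Mstn in BAT (31.6% to 129% over the 10 libraries with a read). Floxed library 3, with no read, is not in that median, and 0.130 CPM was expected there. The source of the Mstn reads was not tested. For Gdf11 the median was 1.93% and the highest 21.7%, for Acvr1b 2.22% and 18.7%, for Acvr2a 0.377% and 5.34%, and for Acvr2b 0.929% and 5.21%. BATI4KO library 3 was the highest for each of these genes. For Acvr1c the share was at most 0.0089%. These shares rest on Ckm as the measure of muscle, and that of Mstn depends on this choice. In the unit used above, the median Mstn ratio for Ckm was 7.59 in BAT and 4.67 in WV. It was 1.67 and 1.34 for Myh4, and 0.191 and 0.197 for the contractile sum.

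The remaining members of BAT overlapped between genotypes. Acvr1b was at 8.16, 6.12, 9.29, 6.77, 7.70 and 6.97 CPM in BATI4KO libraries 1, 2, 3, KO_5414, KO_5492 and KO_5494, against 5.74 to 6.78 in floxed ones, and 4 of the 6 lay above every floxed library. Its log2 difference was 0.28 (SE 0.12; edgeR unadjusted p = 0.0326, adjusted p = 0.292). Inhbb was at 1.44, 0.435, 0.835, 2.35, 0.532 and 1.05 CPM in the same libraries, against 0.498 to 0.863 in floxed ones (log2 0.65, SE 0.40; edgeR adjusted p = 0.474). Its highest value, in BATI4KO library KO_5414, came with the highest Myh7 of BAT: this slow myosin was at 83.3 CPM there and at 0.581 to 14.3 CPM in the other 10 libraries. Gdf11 was at 0.437 ± 0.0783 CPM (SD, n = 5) without and 0.560 ± 0.131 CPM (SD, n = 6) with the deletion (log2 0.35, edgeR adjusted p = 0.492).

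The receptors that BAT carries at the highest level differed least. Acvr1c was at 203, 218, 191, 189, 291 and 210 CPM in BATI4KO libraries 1, 2, 3, KO_5414, KO_5492 and KO_5494, against 176 to 264 in floxed ones, and its log2 difference was -0.005 (SE 0.12, 95% interval -0.24 to 0.23; edgeR adjusted p = 0.992). Acvr2a, at 33.3 to 39.1 CPM against 35.9 to 43.2, had a log2 difference of -0.14 (SE 0.08, 95% interval -0.30 to 0.03; edgeR adjusted p = 0.464). Acvr2b had one of 0.21 (SE 0.19; edgeR adjusted p = 0.629) and Fst one of -0.19 (SE 0.23; edgeR adjusted p = 0.730). The sign for Acvr1c changed with the scaling, to 0.13 with library totals, which moved the median of all BAT models from -0.01 to 0.13 as well.

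In the muscle no member passed between genotypes. Of the 9 tested, 0 were called by edgeR, where 0.00688% of all 14529 models were, and 2 had an unadjusted p under 0.05 (Acvr2a and Acvr2b), where 8.91% of all models did. DESeq2 called 0 members and 97 models. The libraries overlapped for all 10 members, where 1.19% of models had no overlap. The members' median log2 difference, BATI4KO minus floxed, was -0.06, against -0.01 over all models.

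Both type II receptors had positive differences in muscle that did not pass. Acvr2b was at 12.4, 20.3, 14.3, 18.4 and 18.0 CPM in BATI4KO libraries KO_5492, KO_5493, KO_5494, KO_5495 and KO_5496, against 8.25 to 18.1 in floxed ones (log2 0.49, SE 0.20; edgeR unadjusted p = 0.0339, adjusted p = 0.528). Acvr2a was at 89.0, 163, 139, 95.1 and 145 CPM, against 76.2 to 116 (log2 0.40, SE 0.18; edgeR unadjusted p = 0.0428, adjusted p = 0.543). In 3 of the 5 BATI4KO libraries Acvr2a lay above every floxed library. Acvr1b was at 52.5, 101, 89.7, 86.7 and 138 CPM in the same BATI4KO libraries, against 94.7 to 155 (log2 -0.40, SE 0.22; edgeR adjusted p = 0.634). Acvr1c, at 1.504, 0.928, 0.702, 0.134 and 0.0971 CPM against 0.491 to 2.23, had a log2 difference of -1.08 (SE 0.62; edgeR adjusted p = 0.661). All 4 tested adipocyte markers had negative differences beside it, with a median of -1.47 and 0 passing.

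The ligands and antagonists of muscle showed little difference against their spread. Mstn was at 60.5, 139, 136, 57.6 and 136 CPM in BATI4KO WV libraries KO_5492, KO_5493, KO_5494, KO_5495 and KO_5496. Each genotype had 2 low and 3 high libraries, at 57.4 to 75.6 and 121 to 160 CPM in floxed and at 57.6 to 60.5 and 136 to 139 CPM in BATI4KO mice, so the spread within a genotype exceeded the difference of the means, 106 ± 42.7 against 108 ± 41.3 CPM (SD, n = 5 each; log2 -0.06, SE 0.33, 95% interval -0.70 to 0.58; edgeR adjusted p = 0.974). The slow-fibre genes were uneven in the same libraries: Myh7 was at 817 and 1440 CPM in BATI4KO libraries KO_5492 and KO_5495 and at 255 CPM in floxed library FX_5514, which had low Mstn, and at 0.930 to 43.4 CPM in the other 7. Floxed library FX_5413 had low Mstn with Myh7 at 14.6 CPM. With a slow-muscle score as a covariate the difference of Mstn was 0.12. Log2 differences were 0.003 for Gdf11 (SE 0.28), -0.55 for Inhbb (SE 0.33), -0.06 for Fst (SE 0.35) and 0.06 for Fstl3 (SE 0.35), with edgeR adjusted p-values of 0.671 to 0.998. The signs for Gdf11 and Fstl3 changed with library totals, to -0.18 and -0.04, where the median of all WV models moved from -0.01 to -0.12.

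Whether the genotype difference itself differed between fat and muscle was tested by an interaction term over all 21 libraries. Of 9 members, 0 passed edgeR's test, where 0.018% of 16632 models did, and 4 had an unadjusted p under 0.05 (Mstn, Acvr2a, Acvr1b and Inhbb), where 10.6% of models did. DESeq2 called 0 members and 54 models. The difference in BAT minus that in WV was 2.88 for Mstn (SE 0.93; edgeR adjusted p = 0.302), 1.19 for Inhbb (SE 0.55; 0.455), 0.66 for Acvr1b (SE 0.26; 0.368) and -0.55 for Acvr2a (SE 0.20; 0.334). For Ckm and Myh4 it was 2.95 and 2.60 (edgeR adjusted p = 0.272 and 0.329), near the value for Mstn. With a library left out the value for Mstn ran from 1.68, without BATI4KO BAT library 3, to 3.60, without floxed BAT library FX_5497, and did not pass.

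Other genes of the pathway passed between tissues and did not pass between genotypes. Over all models, 34.1% were higher and 31.7% lower in BAT of floxed mice, and 37.4% and 33.1% in BATI4KO mice. Of 9 tested ligands of the TGF-beta family outside the 10, 2 were higher and 6 lower in BAT of floxed mice, among them Tgfb3 (log2 -3.02), Tgfb2 (-4.09) and Inha, the inhibin alpha subunit (-4.24). Of 9 other receptors and co-receptors, 4 were higher and 5 lower, with Bmpr1b (-4.61), Bmpr1a (-1.74) and Tgfbr1 (-1.09) having the smallest p. Of 12 extracellular inhibitors, binding proteins and processing proteases, 1 was higher and 8 lower. Wfikkn2, which encodes a secreted protein that binds myostatin and GDF11, had a log2 difference of -4.93, Nog, the BMP antagonist noggin, one of -6.12, and Ltbp1, which stores latent TGF-beta in the matrix, one of -1.76. Among 13 SMADs and regulators 4 were higher and 4 lower, with Zfyve9 at -2.22, Smad3 at -2.29 and Smad4 at -1.13. Of 9 genes known to respond to the pathway 4 were higher and 5 lower: the muscle ubiquitin ligases Fbxo32 (-5.50) and Trim63 (-8.14) had lower levels and Id1 a higher one (2.13) in BAT. In BATI4KO mice the counts of higher and lower genes were 2 and 5, 4 and 5, 2 and 7, 4 and 7, and 4 and 4 in the same order of lists.

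Between genotypes none of these 5 lists had a gene that passed in BAT, in WV or in the interaction by edgeR. Their medians in BAT were -0.22 for ligands, -0.14 for receptors, 0.03 for inhibitors and proteases, -0.02 for SMADs and -0.04 for responding genes, against -0.01 over all models. The smallest p in BAT belonged to Bmp6 (log2 -0.25) and Bmp4 (-0.54), Bmpr2 (-0.21) and Eng (-0.29), Wfikkn2 (0.65) and Tll1 (0.47), Zfyve9 (-0.21) and Smad6 (0.44), and Ctgf (-0.70) and Cdkn1a (-0.83), none of which passed (edgeR adjusted p = 0.222 to 0.441). In WV the medians were -0.05, -0.02, -0.02, 0.13 and -0.23 in the same order, and 11 of 13 SMADs and regulators had positive and 8 of 9 responding genes negative differences. The smallest p there belonged to Bmp4 (-0.61) and Inha (-0.67), Tgfbr3 (-0.41) and Bmpr1a (0.31), Dcn (-0.99) and Ltbp1 (-0.33), Ski (0.36) and Smurf2 (0.17), and Foxo1 (-1.04) and Trim63 (-0.73), which did not pass either (edgeR adjusted p = 0.366 to 0.639). In the interaction they belonged to Bmp7 (1.04) and Bmp2 (-0.39), Bmpr1b (-1.12) and Bmpr2 (-0.53), Nog (1.138) and Wfikkn2 (0.53), Smurf2 (-0.29) and Zfyve9 (-0.38), and Foxo1 (0.90) and Trim63 (1.51), again without passing (edgeR adjusted p = 0.331 to 0.723).

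As a description, the gene models whose log2 level was most like that of a member across libraries were listed by Pearson's r. For Mstn in the 11 BAT libraries these were Rbfox1 (0.92), Dhx57 (0.90), Myom1 (0.89), Aqp4 (0.88) and Chst3 (0.87) of 13328 models, where Ckm was at 0.79 and Myh4 at 0.82. Myom1 encodes myomesin, a protein of the sarcomere, and Rbfox1 a splicing factor of muscle and neurons. For Mstn in the 10 WV libraries they were Stac3 (0.96), Cbfb (0.95), Ctbs (0.95), Hectd2 (0.95) and Snx10 (0.94) of 12759. Stac3 encodes a protein of excitation-contraction coupling. For Inhbb in BAT they were Myh7 (0.92), Lbp (0.90), Tmem98 (0.87), Myl2 (0.87) and Tnnc1 (0.85), of which Myh7, Myl2 and Tnnc1 encode slow-fibre proteins, and BATI4KO library KO_5414 was highest for Inhbb and for these 3. For Acvr1c in BAT they were Zfp445 (0.90), Tesk2 (0.87), Dolpp1 (0.87), Syncrip (0.86) and Sel1l (0.86), with Ckm at 0.04 and Myh4 at 0.13. The points share libraries and depth, and a list of the highest r among so many models is high by selection.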

How the data were processed

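The 21 libraries were of whole brown fat (BAT) and white vastus muscle (WV). Ribosomal RNA was removed from column-extracted RNA before random-primed cDNA was tagmented, per the labels' protocols. Each tissue has 1 table of unnormalized counts by gene model, deposited by the authors. Reads were aligned to build mm9 with TopHat2 2.0.14 and counted with featureCounts 1.4.6, per the submitters' processing notes, which also name edgeR, SAMtools 0.1.19, Picard 2.2.4 and bcl2fastq 2.17.1.14. How strand and duplicates were handled is not given in the sources, so reads of overlapping genes may be mixed. Depth was 20219479 to 41773148 counts. No pair of libraries of the same group agreed within sampling noise.

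From these counts, edgeR 4.0.16 (R 4.3.3) tested all models by the quasi-likelihood F test after its expression filter and TMM scaling, and called models at a Benjamini-Hochberg adjusted p under 0.05. The fit of BAT had title style as a covariate (11 libraries, 16051 models), that of WV none (10 libraries, 14529 models), and tissues and the interaction in 1 fit of 21 libraries with title style of BAT (16632 models). Ratios used a pseudocount of 0.5 counts and correlations a prior count of 0.5. Steps were tested on simulated data. Of simulated 1.5-fold and 2-fold changes, 9.38% and 45.7% were recovered in BAT, 16.9% and 76.3% in WV, and 7.89% and 25.9% in the interaction. Of 4-fold changes, 97%, 94.7% and 81.8% were. Changes were simulated only in models above a minimum mean count, so these shares do not describe Mstn, Inhba and Fstl3 in BAT. Differences of 2-fold or less could thus be missed, and larger ones where counts were few.

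The members, the lists of pathway genes and markers, and the tests were chosen with earlier results of these data known. Named were all members, Irf4, Ucp1, Ckm, Myh4, from each list up to 3 passing genes with the smallest p or, where none passed, 2, and for Mstn, Acvr1c and Inhbb the 5 models of highest r with a mean of at least 1 CPM. A gene that this rule names is not reported here. Values of Adipoq, Myh7 and other markers were added after they were seen. Alternatives were other scalings, filters, DESeq2 1.42.0, limma 3.58.1 voom, covariates, title styles, pseudocounts, the replicate block and each library left out. Fits of Mstn in BAT with no filter were added after seeing the data. Promoter windows came from a RefSeq table of GRCm38.p6 by symbol.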

Additional observations from a re-analysis of the deposited data

Results flagged for a closer look

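The level of each of the 10 members was examined within each of the 4 groups for a library far from the rest, by the gap to its nearest neighbour relative to the range of the group. Of 40 groups of values 6 held such a library, where the cut-off gives about 1 in 20 for independent, normally distributed values. The groups share libraries and some rest on few counts, so that rate need not hold here. In BATI4KO BAT, Mstn was at 3.11 CPM in library 3 and at 0.179 to 0.716 CPM in the other 5, and that library also held the most contractile muscle RNA of BAT, 19016 CPM in sum. Inhba was at 0.300 CPM in library KO_5492 against 0.0262 to 0.128 CPM, and Acvr1c at 291 CPM in the same library against 189 to 218 CPM. Fstl3 was at 0.484 CPM in library KO_5414 against 0.102 to 0.236 CPM. In floxed WV, Gdf11 was at 3.49 CPM in library FX_5413, the lowest, against 6.28 to 7.11 CPM, and Fstl3 at 0.629 CPM in library FX_5497 against 0.246 to 0.338 CPM. Inhba and Fstl3 rest on at most 22 counts per library.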

How the results depend on the processing

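The number of members passing was 0 in BAT, in WV and in the interaction under each alternative run, except that Mstn passed in BAT with no filter and without BATI4KO library 2 (3.07; edgeR adjusted p = 0.0468), and 6 between tissues except with library totals (7 floxed, 8 BATI4KO) and without the style covariate (8 floxed). Every library left out in turn gave 0, 0, 6, 6 and 0. Over all models the count was 7 in BAT, but 374 with DESeq2, 1 with a muscle score or without the style covariate, 3 with a filter of 1 CPM, 0 in short-number libraries and 1 to 16 with a library left out. It was 1 in WV, but 97 with DESeq2, 5 with no filter, 3 with the slow-muscle score, 2 with Rmrp as a covariate, 0 with a filter of 1 CPM or library totals, and 0 to 11 with a library left out. It was 3 in the interaction, but 54 with DESeq2, 20 with long tags only, 0 with the replicate block, 5 without BATI4KO BAT library 1 and 30 without library 2. Depth limits Mstn in BAT, Inhba and Fstl3: Mstn fell under the filter in BAT without any BATI4KO library other than 2, with a filter of 1 CPM and with short numbers only, and DESeq2 gave it no adjusted p. No-filter fits of Mstn ran from 1.62 to 3.59 over the libraries left out.

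Same-number correlations of deviations in BAT were 0.131, -0.106 and 0.0755, not all above 0.1, so the numbers were not taken as pairs. For tags found in both tissues they were 0.113, -0.007, -0.084 and 0.079. With 2 such libraries per genotype and tissue these values cannot show whether a shared tag marks 1 animal, which was not tested. With a replicate block, 0 members passed in short-number BAT (0 models in all) and 6 between tissues in each genotype. With no filter and the block, Mstn in short-number BAT was 2.95. With the block Acvr1c in BAT was 0.0446, Fst between tissues in floxed mice -0.0362, Inhbb in BATI4KO mice -0.0324, and the interaction 0.138 for Fst and -0.0337 for Fstl3.

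Signs near 0 changed elsewhere, the cause was not tested, and none of these values passed. In BAT, Fst was 0.166 in long-tag libraries, and Acvr1c 0.129 with library totals, 0.00683 with a filter of 1 CPM, 0.0429 with short numbers only and 0.0107 without the style covariate. In WV, Mstn was 0.121 with the slow-muscle score and 0.311 with Rmrp as covariates, Gdf11 -0.0893 by voom, -0.00890 with a filter of 1 CPM and -0.181 with library totals, Fst 0.358 with Rmrp, 0.0550 by voom and 0.0459 with the slow-muscle score, and Fstl3 -0.0399 with library totals. Between tissues, library totals gave 0.0686 for Inhbb in floxed and 0.259 for Fstl3 in BATI4KO mice, and in the interaction 0.133 for Fst, which was 0.199 with long tags only. With a library left out, values ran from -0.0744 to 0.0632 for Acvr1c in BAT, and in WV from -0.222 to 0.127 for Mstn, -0.167 to 0.155 for Gdf11, -0.281 to 0.110 for Fst and -0.0475 to 0.362 for Fstl3. They ran from -0.0140 to 0.856 for Inhbb between tissues in BATI4KO mice, and in the interaction from -0.309 to 0.0719 for Fst and -0.0520 to 0.535 for Fstl3. With library totals Inhbb passed between tissues in BATI4KO mice (1.55; edgeR adjusted p = 0.00315).

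For Mstn per muscle gene, the difference between BAT and WV of floxed mice was -0.113 for Ckm and -0.370 for Myh4 with a pseudocount of 0.1, and 0.105 for the contractile sum with long tags only. Between genotypes in BAT it was -0.903, -0.549 and -0.278 with long tags only, for Ckm, Myh4 and the sum. With a library left out the genotype differences ran from -0.438 to 0.628, -0.373 to 0.602 and -0.179 to 0.863, negative only without floxed library 3. The floxed tissue difference for Myh4 ran from -0.102 to 0.874 and the BATI4KO one for the sum from -0.169 to 0.226. The correlation of Mstn with Ckm ran from 0.647 to 0.962 and with the sum from 0.632 to 0.983 with a library left out, missing the threshold without BATI4KO library 3. It was 0.608, 0.687 and 0.606 for Ckm, Myh4 and the sum without the 2 farthest libraries and 0.740, 0.775 and 0.779 in short-number libraries, and passed in none of these.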
